A study of Homo sapiens with 24 samples.

Results

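The genes described here are 40 interferon-stimulated genes, taken from a named list of symbols that were paired with Ensembl identifiers, out of 62754 genes in the transcript table. Cells respond to interferon through receptors and Janus kinases. These phosphorylate transcription factors such as STAT2, which binds DNA together with IRF9 at interferon-stimulated response elements, and the genes switched on in this way code for antiviral proteins, for ubiquitin-like modifiers and for regulators of the response itself. Many of the same genes keep a low basal level in cells that were given no interferon, and all libraries described here come from cells to which none was added.

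RNA was measured in RKO cells, a human colon carcinoma line, in a derivative grown from a single cell that carries a doxycycline-inducible Cas9. ERH is a small conserved protein of the nucleus that takes part in RNA processing. Cells expressed a guide that directs Cas9 to ERH (sgERH) or to the safe-harbour site AAVS1 (sgAAVS1), were given doxycycline (100 ng/mL) for 5 days and were sorted for guide expression as a bulk population, so that a culture can mix differently edited alleles of 1 clone. For the last 4 hours they received cycloheximide (CHX, 25 µg/mL), an inhibitor of translation dissolved in DMSO, or DMSO alone, and were then split into nucleus and cytoplasm by mild detergent lysis. The 8 groups of guide, fraction and treatment held 3 libraries each, 24 in all.

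Library totals ran between 27.8 M and 79.5 M counts. Levels are given as CPM, counts scaled to the size of the library. Cutting by Cas9 need not remove the mRNA, and in cytoplasm with DMSO ERH itself was at 72.9, 86.9 and 59.4 CPM in sgERH libraries, against 137, 158 and 152 CPM in sgAAVS1 libraries. With CHX the cytoplasmic values were 68.4, 81 and 61.6 CPM in sgERH libraries, against 118, 122 and 107 CPM in sgAAVS1 libraries. No sgERH library reached an sgAAVS1 library in cytoplasm or in nucleus with DMSO, while in nucleus with CHX the groups overlapped, with 11.9, 16.8 and 11.8 CPM in sgERH libraries, against 15.6, 14.2 and 14.1 CPM in sgAAVS1 libraries. All levels are relative to the library, and fewer cells of a type and less RNA per cell cannot be told apart in bulk RNA. Of the colon epithelial markers, KRT8, KRT18, EPCAM and CDX2 were present and KRT20 and CDX1 had no count in any library. Of 12 leukocyte markers, CD68 made up most of the summed level, which spanned 157 to 218 CPM in sgERH libraries, against 59.6 to 95.2 CPM in sgAAVS1 libraries, in nucleus with DMSO, whereas PTPRC, which defines leukocytes, never exceeded 7 counts and CD3E and NKG7 were at 0 throughout. The share of counts on mitochondrial mRNA in cytoplasm with DMSO spanned 5.66 to 6.84% in sgERH libraries, against 3.62 to 4.12% in sgAAVS1 libraries, and its part in the results was not tested.

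The promoters of many of these genes share a short motif. The core of an interferon-stimulated response element is written here as 2 copies of GAAA that stand 2 bases apart, on either strand, where the other strand reads TTTC. This pattern, which can overlap other motifs, was found within 250 bases upstream of the start in 3.02% of 35116 promoters. Of the 34 members with a promoter in the table, 19 (55.9%) had it in at least 1 promoter. The first share counts promoters and the second counts genes, whose promoters numbered 47, so that the units differ. The pattern was present upstream of 9 of the 14 members that rose in sgERH cells in at least 1 comparison, 12 of which had a promoter in the table. The windows below, 5′ to 3′ on the strand of the gene, come from RefSeq promoters of GRCh38.p14 and show the 9 called members with a match, with capitals marking the matches. Of the other 5 called members, BATF2, SAMD9L and SP110 had no match and IFIT2 and GBP2 had no promoter in the table. Of the 22 members with a promoter that were never called, 10 had a match, so that the motif is a property of the list and its relation to the guide effect was not tested. A match is a description of the letters and not of binding.
GBP1 (chr1:89065291-89065370, minus strand): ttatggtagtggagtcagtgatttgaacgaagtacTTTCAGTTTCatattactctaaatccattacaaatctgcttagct
IFI44 (chr1:78649736-78649788, plus strand): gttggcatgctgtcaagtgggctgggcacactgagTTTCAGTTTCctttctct
IFI6 (chr1:27672241-27672320, minus strand): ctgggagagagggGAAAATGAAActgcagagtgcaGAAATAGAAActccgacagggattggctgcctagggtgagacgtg
IFIT1 (chr10:89392472-89392564, plus strand): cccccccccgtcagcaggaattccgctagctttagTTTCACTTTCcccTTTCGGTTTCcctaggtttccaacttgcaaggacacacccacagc
IFIT3 (chr10:89332400-89332522, plus strand): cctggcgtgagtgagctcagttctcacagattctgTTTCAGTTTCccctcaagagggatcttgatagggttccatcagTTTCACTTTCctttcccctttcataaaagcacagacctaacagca
ISG15 (chr1:1013349-1013434, plus strand): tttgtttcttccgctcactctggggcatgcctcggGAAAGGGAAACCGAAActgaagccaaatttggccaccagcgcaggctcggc
MX1 (chr21:41431819-41431898, plus strand): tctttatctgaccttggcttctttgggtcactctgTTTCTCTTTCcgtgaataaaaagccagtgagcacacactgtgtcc
PARP12 (chr7:140062952-140062996, minus strand): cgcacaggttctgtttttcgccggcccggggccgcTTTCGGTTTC
SAMD9 (chr7:93118071-93118150, minus strand): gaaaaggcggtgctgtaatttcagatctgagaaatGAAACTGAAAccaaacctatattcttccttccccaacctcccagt
The spacing and number of copies differed between members. IFI6, IFIT1, IFIT3 and ISG15 carried a pair of matches in the window shown, and in ISG15 they shared a GAAA. GBP1, IFI44, MX1, PARP12 and SAMD9 carried 1 in theirs, and IFI6 had 3 over the whole upstream part. In IFI44 and PARP12 the match lay 8 and 0 bases from the start of the promoter shown. The same IFI44 match lay 50 bases from another annotated start. IFIT3 had another promoter, not shown, with 2 matches.

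Of the 40 members, 36 had enough reads for a test in each fraction. A call required an adjusted p of at most 0.05 by edgeR's quasi-likelihood test with Benjamini-Hochberg adjustment over all genes tested, and a log2 fold change of at least 1 in size. Every adjusted p below comes from that test, and ± gives the standard error of a fold change. The calls for the guide ran in 1 direction, since 14 members rose in sgERH cells in 1 or more of the 4 combinations of fraction and treatment and 0 fell in any. The share of all genes that rose in 1 or more was not taken. Under the called size but at an adjusted p of at most 0.05, TRIM25 fell with DMSO and IRF7 with CHX in both fractions. GBP3 fell in the same way in nucleus with CHX. In cytoplasm with DMSO 10 members rose, where 9.3% of all genes tested rose and 2.16% fell. With CHX the count in cytoplasm was 11, against 5.79% of all genes higher and 1.43% lower. In nucleus with DMSO 9 members rose, against 4.77% of all genes higher and 1.73% lower. In nucleus with CHX 13 members rose, against 5.29% of all genes higher and 3.68% lower. BATF2, IFI44 and IFIT1 in nucleus met the limit of the low-count filter in fewer than 3 sgAAVS1 libraries and entered the test through sgERH libraries, so that their calls there support nothing. Without them, and without RSAD2, which met it in fewer than 3 sgERH libraries, 8 members rose in nucleus with DMSO and 11 with CHX, of 32. DESeq2 also called 0 members lower in each of these comparisons. An unadjusted p below 0.05, in either direction, was reached by 24, 28, 24 and 26 members in the same order as the counts above. The share of all genes at that level was not taken, so that these numbers are a description.

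The medians below cover all tested members, so that they include the called ones, and the uncalled members were not summarised alone. Estimates were above 0 in all 4 comparisons for 24 of the 36 members, where 14 were called in 1 or more. In nucleus with CHX 28 members lay above 0 and 8 below. The median log2 fold change of the members was 0.40 in cytoplasm with DMSO, where that of all genes was 0.04, and 86.1% of members lay above 0, against 52.6% of all genes. In cytoplasm with CHX it was 0.53, where that of all genes was 0.02. In nucleus it was 0.79 with CHX and 0.60 with DMSO, or 0.59 and 0.56 for the 32 members just described, where all genes had medians of 0.01 and 0.03. IFIT2, IFIT3, IFI6, GBP1, SAMD9, SAMD9L and SP110 were called in all 4 comparisons, as was BATF2, whose nuclear test is limited as above, and 22 of the 36 were never called. The comparisons within a fraction were fitted together and are not independent of each other.

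**Figure D1:**
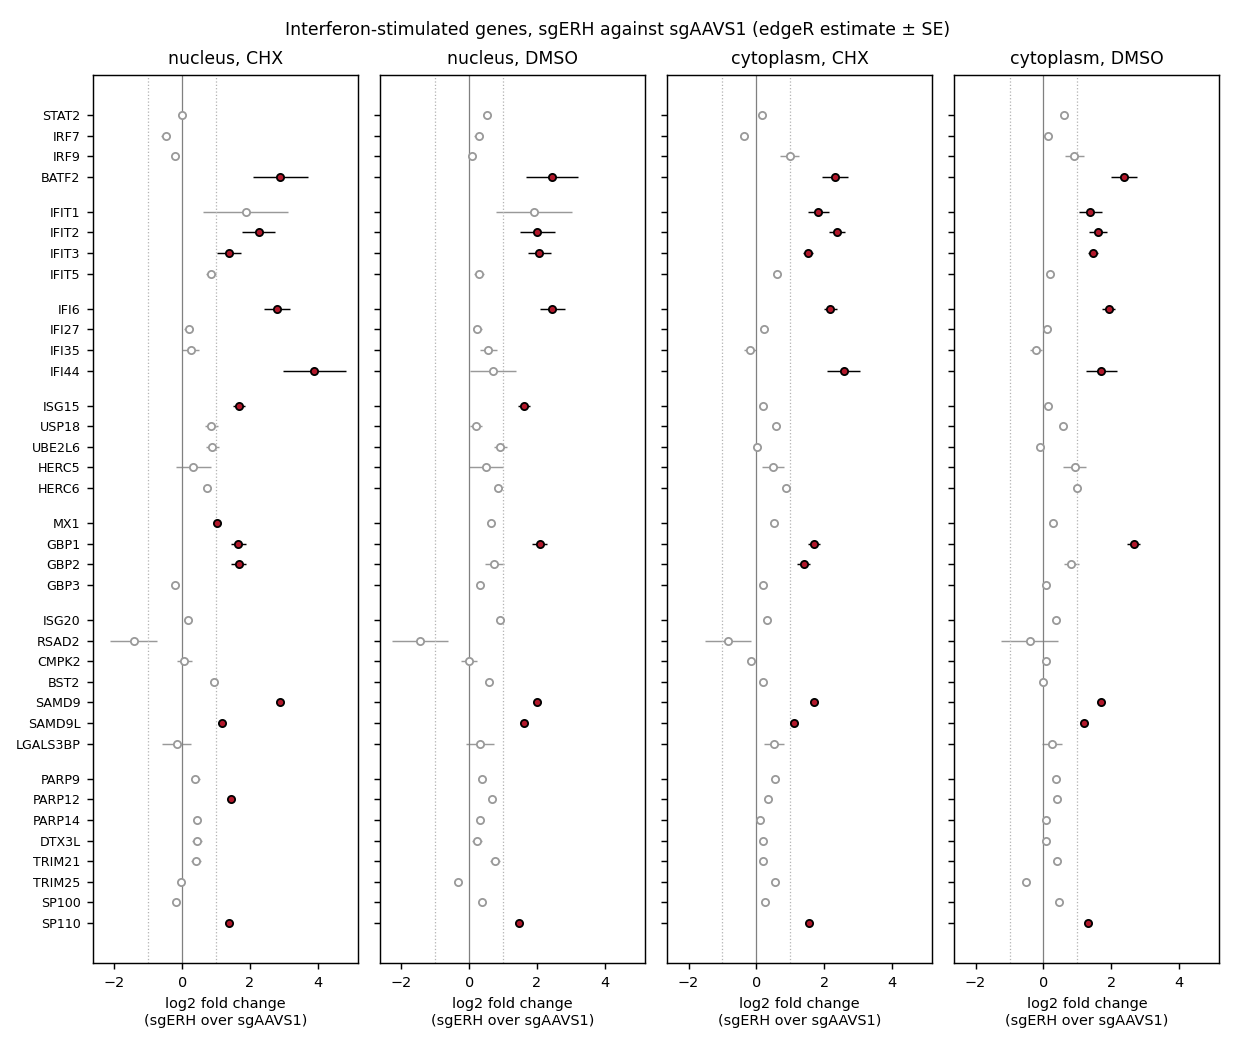
Guide effect on each tested member in the 4 combinations of fraction and treatment. The x axis is the log2 fold change of sgERH over sgAAVS1 with its standard error, rows are members grouped by role, and filled points passed the call. Points to the right of 0 dominate in every panel, with 13 filled in nucleus with CHX, 9 in nucleus with DMSO, 11 in cytoplasm with CHX and 10 in cytoplasm with DMSO.

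Of the transcription factors of the group, BATF2 was called and STAT2, IRF7 and IRF9 were not. BATF2 (chr11:64987945-64997018, minus strand) codes for a basic leucine zipper factor of the AP-1 type that takes part in gene activation in macrophages. Nuclear BATF2 mRNA with DMSO was at 0.704, 0.981 and 1.06 CPM in sgERH libraries, against 0.187, 0.239 and 0.0692 CPM in sgAAVS1 libraries (log2 fold change 2.44 ± 0.77, adjusted p = 0.0196). Cytoplasmic BATF2 mRNA with DMSO was at 1.35, 0.932 and 1.3 CPM in sgERH libraries, against 0.124, 0.269 and 0.291 CPM in sgAAVS1 libraries (log2 fold change 2.38 ± 0.38, adjusted p = 5.31e-05). In nucleus all 6 sgERH libraries and 0 of 6 sgAAVS1 libraries met the filter limit, so that the nuclear values are a description. The lowest sgERH library exceeded the highest sgAAVS1 library in both fractions, but the nuclear call was lost when any of 4 libraries was left out, with adjusted p between 0.0512 and 0.0822. With CHX the log2 fold change was 2.89 ± 0.81 in nucleus, where the sgAAVS1 libraries held 0, 0.075 and 0.284 CPM, and 2.31 ± 0.38 in cytoplasm.

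STAT2, a transcription factor that acts together with IRF9, was higher in sgERH cells with DMSO by less than a called amount. Nuclear STAT2 mRNA with DMSO was at 356, 357 and 320.4 CPM in sgERH libraries, against 241, 231 and 247 CPM in sgAAVS1 libraries (log2 fold change 0.52 ± 0.09, adjusted p = 0.000115). Cytoplasmic STAT2 mRNA with DMSO was at 33, 29.2 and 33.9 CPM in sgERH libraries, against 21.1, 21.9 and 19.9 CPM in sgAAVS1 libraries (log2 fold change 0.61 ± 0.08, adjusted p = 8.64e-06). Both fractions had every sgERH library above every sgAAVS1 library with DMSO. With CHX the groups overlapped, and the log2 fold change of STAT2 was -0.01 ± 0.08 in nucleus and 0.17 ± 0.08 in cytoplasm. The difference between the CHX and DMSO effects was -0.54 ± 0.12 in nucleus (adjusted p = 0.00429) and -0.44 ± 0.11 in cytoplasm (adjusted p = 0.0087).

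IRF7, which amplifies interferon production in many cells, was not called for the guide in any comparison. With CHX in nucleus it was at 26.5, 18.8 and 21.8 CPM in sgERH libraries, against 35.5, 29.1 and 29.7 CPM in sgAAVS1 libraries (log2 fold change -0.49 ± 0.12, adjusted p = 0.00366). With DMSO in nucleus it was at 12.1, 10.8 and 11 CPM in sgERH libraries, against 9.33, 8.87 and 9.83 CPM in sgAAVS1 libraries (log2 fold change 0.28 ± 0.13, adjusted p = 0.117). The sgERH libraries lay below the sgAAVS1 libraries with CHX and above them with DMSO, and the difference of the effects was -0.77 ± 0.18 (adjusted p = 0.00638). IRF9, the DNA-binding partner of the STATs, was at 2.78, 3.46 and 1.33 CPM in sgERH libraries, against 1.18, 1.06 and 1.78 CPM in sgAAVS1 libraries in cytoplasm with DMSO (log2 fold change 0.91 ± 0.29, adjusted p = 0.0133). The sgERH values overlapped the sgAAVS1 values there, and the estimate passed a log2 fold change of 1 when replicate 3 of either group was left out, at 1.19 without the sgAAVS1 library and 1.22 without the sgERH library. IRF9 is uncertain in any case, because an annotated read-through transcript on the same strand, under ENSG00000259529, averaged 709 counts in sgERH libraries, against 469 in sgAAVS1 libraries, in cytoplasm with DMSO, where IRF9 averaged 131 and 83 counts.

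The IFIT proteins bind foreign RNA and slow its translation, and their genes lie side by side on chromosome 10. Their sequences are related, and IFIT1, IFIT2 and IFIT3 overlap LIPA in the annotation, so that reads can be shared among them. IFIT3 (chr10:89327307-89377473, plus strand) was at 3.61, 3.34 and 3.08 CPM in sgERH libraries, against 0.466, 1.19 and 0.727 CPM in sgAAVS1 libraries in nucleus with DMSO (log2 fold change 2.07 ± 0.35, adjusted p = 0.000168). Cytoplasmic IFIT3 mRNA with DMSO was at 9.42, 8.59 and 8.26 CPM in sgERH libraries, against 3.34, 2.76 and 3.45 CPM in sgAAVS1 libraries (log2 fold change 1.46 ± 0.15, adjusted p = 5.86e-07). The groups did not overlap in either fraction, and with CHX IFIT3 rose by 1.38 ± 0.35 in nucleus and 1.52 ± 0.15 in cytoplasm on the log2 scale.

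IFIT2 (chr10:89283694-89309271, plus strand) had its highest level in the cytoplasm of sgERH cells given CHX. There it was at 6.19, 5.98 and 9.06 CPM in sgERH libraries, against 1.35, 1.12 and 1.59 CPM in sgAAVS1 libraries (log2 fold change 2.37 ± 0.24, adjusted p = 5.33e-07). With DMSO in cytoplasm it was at 1.71, 2.57 and 2.27 CPM in sgERH libraries, against 0.731, 0.481 and 0.945 CPM in sgAAVS1 libraries (log2 fold change 1.61 ± 0.26, adjusted p = 5.28e-05). Every sgERH library was above every sgAAVS1 library in all 4 comparisons, with log2 fold changes of 2.25 ± 0.48 in nucleus with CHX and 2.01 ± 0.51 in nucleus with DMSO. IFIT1 (chr10:89392546-89406487, plus strand) was called in cytoplasm in both treatments, at 1.03, 1.37 and 1.39 CPM in sgERH libraries, against 0.279, 0.473 and 0.323 CPM in sgAAVS1 libraries with CHX (log2 fold change 1.82 ± 0.31, adjusted p = 0.000137). With DMSO it was at 0.625, 0.614 and 0.544 CPM in sgERH libraries, against 0.187, 0.241 and 0.254 CPM in sgAAVS1 libraries (log2 fold change 1.38 ± 0.33, adjusted p = 0.00214). The groups were separate in both. Its nuclear reads were few, and with DMSO IFIT1 was at 0.322, 0.607 and 0.353 CPM in sgERH libraries, against 0, 0.341 and 0 CPM in sgAAVS1 libraries, where 1 sgAAVS1 library lay among the sgERH libraries (log2 fold change 1.90 ± 1.12, adjusted p = 0.204). IFIT5, the fourth of the family, was not called for the guide in any comparison. OASL, related to the oligoadenylate synthetases, had at most 2 counts in a library and was not tested.

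IFI6, a mitochondrial and reticulum protein that restrains cell death and flavivirus replication, rose in all 4 comparisons. Nuclear IFI6 mRNA (chr1:27666064-27672212, minus strand) with CHX was at 1.97, 2.17 and 2.14 CPM in sgERH libraries, against 0.207, 0.338 and 0.355 CPM in sgAAVS1 libraries (log2 fold change 2.79 ± 0.39, adjusted p = 1.79e-05). Cytoplasmic IFI6 mRNA with DMSO was at 8.07, 7.28 and 4.84 CPM in sgERH libraries, against 2.01, 1.47 and 1.82 CPM in sgAAVS1 libraries (log2 fold change 1.93 ± 0.19, adjusted p = 2.86e-07). No sgAAVS1 library came near an sgERH library in these pairs, and the other 2 fold changes were 2.45 ± 0.37 in nucleus with DMSO and 2.18 ± 0.19 in cytoplasm with CHX. IFI44, an antiviral protein, was present at few reads. Cytoplasmic IFI44 mRNA with CHX was at 1.2, 0.944 and 1.41 CPM in sgERH libraries, against 0.213, 0.335 and 0.0673 CPM in sgAAVS1 libraries (log2 fold change 2.57 ± 0.48, adjusted p = 0.000297). Cytoplasmic IFI44 mRNA with DMSO was at 1.25, 1.05 and 0.77 CPM in sgERH libraries, against 0.14, 0.382 and 0.418 CPM in sgAAVS1 libraries (log2 fold change 1.71 ± 0.46, adjusted p = 0.00458). Both cytoplasmic pairs were separate. In nucleus with CHX its counts were 14, 14 and 19 in sgERH libraries, against 0, 1 and 1 in sgAAVS1 libraries, a ratio of 16.6 scaled for depth (exact 95% interval 4.34 to 141, for counting error only), and in nucleus with DMSO the groups overlapped. IFI44 entered the nuclear test through sgERH libraries, so that this ratio is a description. IFI27 and IFI35 were not called for the guide in any comparison, and IFI44L and XAF1, with at most 3 and 4 counts in a library, were not tested.

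ISG15 is a ubiquitin-like protein that is joined to other proteins by UBE2L6 and HERC5 and removed by USP18. Its mRNA (chr1:1001138-1014540, plus strand) was called in the nucleus and not in the cytoplasm. Nuclear ISG15 mRNA with DMSO was at 11.1, 12.6 and 9.82 CPM in sgERH libraries, against 3.48, 3.58 and 4.01 CPM in sgAAVS1 libraries (log2 fold change 1.60 ± 0.18, adjusted p = 2.12e-06). Cytoplasmic ISG15 mRNA with DMSO was at 41.1, 39.4 and 33.7 CPM in sgERH libraries, against 35.7, 33.7 and 35.5 CPM in sgAAVS1 libraries (log2 fold change 0.12 ± 0.08, adjusted p = 0.199). With DMSO the nuclear groups were separate and the cytoplasmic groups overlapped, and the effect in nucleus minus that in cytoplasm was 1.497 ± 0.15 (adjusted p = 1.61e-06). With CHX the nuclear values were 13.9, 12.7 and 15 CPM in sgERH libraries, against 3.73, 5.63 and 3.73 CPM in sgAAVS1 libraries (log2 fold change 1.67 ± 0.18, adjusted p = 8.03e-07). The cytoplasmic values with CHX were 28.2, 33.8 and 29.8 CPM in sgERH libraries, against 27.2, 26.7 and 25.6 CPM in sgAAVS1 libraries (log2 fold change 0.21 ± 0.08, adjusted p = 0.0408), and both pairs of groups were separate.

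UBE2L6, the conjugating enzyme of ISG15, showed the same contrast of fractions without being called in either. Nuclear UBE2L6 mRNA with DMSO was at 11.6, 8.88 and 8.95 CPM in sgERH libraries, against 5.41, 5.05 and 5.19 CPM in sgAAVS1 libraries (log2 fold change 0.91 ± 0.19, adjusted p = 0.00125). Cytoplasmic UBE2L6 mRNA with DMSO was at 36.4, 35.6 and 37.7 CPM in sgERH libraries, against 40.6, 36.9 and 41.2 CPM in sgAAVS1 libraries (log2 fold change -0.11 ± 0.06, adjusted p = 0.112). The sgERH libraries were the higher ones in nucleus and overlapped the sgAAVS1 libraries in cytoplasm, and the difference of the 2 effects was 1.04 ± 0.14 (adjusted p = 3.06e-05), or 0.91 without replicate 1 of the nuclear sgERH libraries. ISG15 and UBE2L6 were the 2 of 35 members called higher for this difference between fractions and 0 were lower, where 1.78% of all genes tested were higher and 3.95% lower. Nuclear libraries with DMSO also differed in their share of mitochondrial mRNA. It spanned 0.810 to 0.908% in sgERH libraries, against 0.470 to 0.598% in sgAAVS1 libraries, and its part in this difference was not tested. Without replicate 2 of the nuclear sgAAVS1 libraries, IFIT1 and IFIT3 were called as well. HERC6 remained just under the limit, at 50.1, 52.9 and 48.9 CPM in sgERH libraries, against 24.9, 26.8 and 25.3 CPM in sgAAVS1 libraries in cytoplasm with DMSO (log2 fold change 0.98 ± 0.08, adjusted p = 2.81e-08). Its groups were separate in all 4 comparisons.

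**Figure D2:**
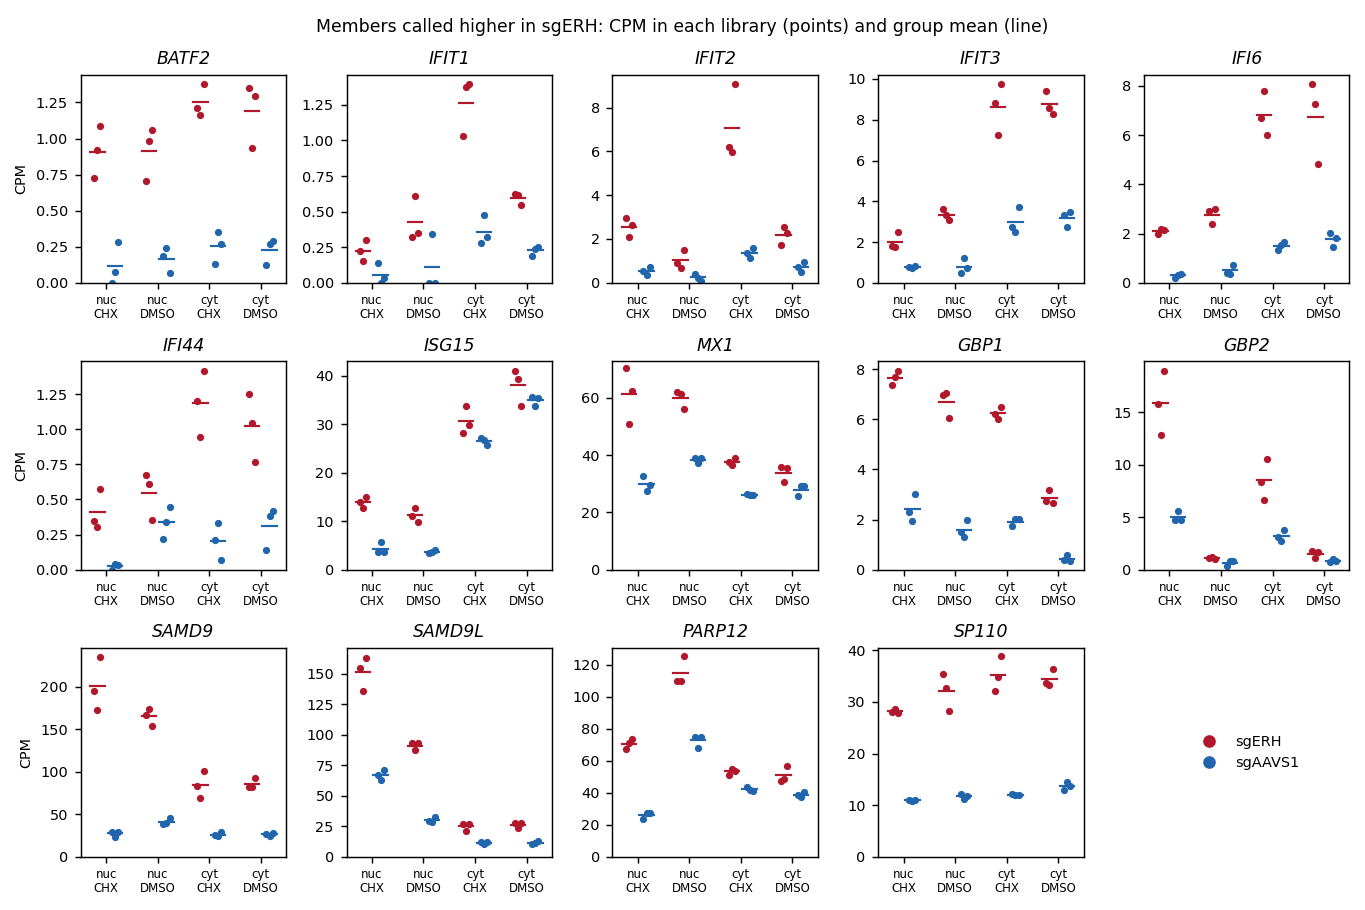
Level of each of the 14 members called higher in sgERH cells, as CPM in each library (points) with the mean of the group (line), for nucleus and cytoplasm with CHX and with DMSO. For GBP1, IFI6, SAMD9, SAMD9L and SP110 the sgERH points lie above the sgAAVS1 points in every pair, while the ISG15 pairs separate clearly in nucleus and overlap in cytoplasm with DMSO.

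Among the GTPases, GBP1 rose in all 4 comparisons. Guanylate-binding proteins coat pathogen membranes, and their genes form a cluster of related sequences on chromosome 1, where reads can be shared among copies and GBP2 overlaps GBP7. Nuclear GBP1 mRNA (chr1:89051882-89065360, minus strand) with DMSO was at 6.98, 7.05 and 6.05 CPM in sgERH libraries, against 1.49, 1.3 and 1.97 CPM in sgAAVS1 libraries (log2 fold change 2.08 ± 0.22, adjusted p = 1.22e-06). Cytoplasmic GBP1 mRNA with DMSO was at 2.74, 3.18 and 2.65 CPM in sgERH libraries, against 0.404, 0.58 and 0.345 CPM in sgAAVS1 libraries (log2 fold change 2.66 ± 0.19, adjusted p = 8.76e-09). The groups were far apart in both fractions. With CHX the sgAAVS1 level of GBP1 was higher, and in cytoplasm it was at 6.22, 6.01 and 6.48 CPM in sgERH libraries, against 1.72, 2.01 and 2.03 CPM in sgAAVS1 libraries (log2 fold change 1.70 ± 0.17, adjusted p = 4.23e-07).

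GBP2 (chr1:89106132-89150456, minus strand) was called for the guide with CHX and not with DMSO. Nuclear GBP2 mRNA with CHX was at 15.8, 12.9 and 18.9 CPM in sgERH libraries, against 4.69, 5.59 and 4.76 CPM in sgAAVS1 libraries (log2 fold change 1.66 ± 0.22, adjusted p = 8.54e-06). Nuclear GBP2 mRNA with DMSO was at 1.14, 1.21 and 0.989 CPM in sgERH libraries, against 0.373, 0.784 and 0.865 CPM in sgAAVS1 libraries (log2 fold change 0.73 ± 0.28, adjusted p = 0.0486). The groups were separate in both treatments. In cytoplasm the log2 fold change of GBP2 was 1.39 ± 0.20 with CHX and 0.83 ± 0.23 with DMSO, and the difference between treatments was not called in either fraction. MX1, a dynamin-like GTPase that blocks influenza virus, is related to MX2, so that reads can be shared, and overlaps TMPRSS2. Nuclear MX1 mRNA with CHX was at 70.5, 51 and 62.4 CPM in sgERH libraries, against 32.7, 27.6 and 29.5 CPM in sgAAVS1 libraries (log2 fold change 1.03 ± 0.11, adjusted p = 6.09e-07). That call was lost when sgERH replicate 1 (0.92) or sgAAVS1 replicate 2 (0.98) was left out, although the groups were separate in all 4 comparisons. MX2 had at most 12 counts in a library and was not tested.

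SAMD9 and SAMD9L, neighbouring and similar genes on chromosome 7 whose products restrict poxviruses and slow translation, rose in every comparison. Nuclear SAMD9 mRNA (chr7:93099513-93118023, minus strand) with CHX was at 195, 173 and 235 CPM in sgERH libraries, against 29, 23.3 and 29.3 CPM in sgAAVS1 libraries (log2 fold change 2.88 ± 0.12, adjusted p = 1.74e-10). Cytoplasmic SAMD9 mRNA with DMSO was at 82.2, 82.5 and 92.1 CPM in sgERH libraries, against 26.6, 24.7 and 28.3 CPM in sgAAVS1 libraries (log2 fold change 1.69 ± 0.11, adjusted p = 2.87e-09). No library of one guide reached the range of the other, and the nuclear effect with CHX exceeded that with DMSO, 2.01 ± 0.11, by 0.88 ± 0.16 (adjusted p = 0.000892). SAMD9L (chr7:93130056-93148385, minus strand) was at 92.8, 87.5 and 93.1 CPM in sgERH libraries, against 29.1, 28.4 and 32.7 CPM in sgAAVS1 libraries in nucleus with DMSO (log2 fold change 1.60 ± 0.09, adjusted p = 1.3e-09). Cytoplasmic SAMD9L mRNA with DMSO was at 27.4, 23.4 and 27.8 CPM in sgERH libraries, against 10.4, 10.9 and 12.6 CPM in sgAAVS1 libraries (log2 fold change 1.21 ± 0.11, adjusted p = 7.71e-08). Its groups were separate there and with CHX, where the log2 fold changes were 1.17 ± 0.08 in nucleus and 1.12 ± 0.11 in cytoplasm.

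SP110, a nuclear body protein of the SP100 family that overlaps SP140 in the annotation, rose by a similar amount in each comparison. Nuclear SP110 mRNA (chr2:230165186-230225729, minus strand) with DMSO was at 35.5, 32.7 and 28.2 CPM in sgERH libraries, against 12.2, 11.2 and 11.7 CPM in sgAAVS1 libraries (log2 fold change 1.46 ± 0.10, adjusted p = 1.53e-08). Cytoplasmic SP110 mRNA with DMSO was at 33.8, 33.2 and 36.4 CPM in sgERH libraries, against 13, 14.5 and 13.7 CPM in sgAAVS1 libraries (log2 fold change 1.33 ± 0.08, adjusted p = 7.42e-10). The ranges of the guides did not overlap in any comparison, and with CHX SP110 rose by 1.37 ± 0.10 in nucleus and 1.55 ± 0.08 in cytoplasm on the log2 scale. PARP12, an ADP-ribosyltransferase that blocks virus translation, was called only in nucleus with CHX, at 67.2, 71.3 and 73.5 CPM in sgERH libraries, against 23.3, 27 and 27.5 CPM in sgAAVS1 libraries (log2 fold change 1.45 ± 0.09, adjusted p = 3.17e-09). Nuclear PARP12 mRNA with DMSO was at 109.7, 109.7 and 125 CPM in sgERH libraries, against 74.9, 68 and 74.8 CPM in sgAAVS1 libraries (log2 fold change 0.66 ± 0.08, adjusted p = 9.69e-06). Both pairs were separate, and the effect with CHX exceeded that with DMSO by 0.79 ± 0.12 (adjusted p = 0.000257).

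RSAD2, whose product viperin makes a chain-terminating nucleotide, had estimates below 0 in all 4 comparisons without passing the test. Nuclear RSAD2 mRNA with CHX was at 0.125, 0.416 and 0.332 CPM in sgERH libraries, against 0.69, 1.05 and 0.639 CPM in sgAAVS1 libraries (log2 fold change -1.43 ± 0.69, adjusted p = 0.105). Every sgERH library was below every sgAAVS1 library there, at a level of a few counts. RSAD2 overlaps CMPK2, and PARP9 overlaps DTX3L, on opposite strands, and the sources used here do not state whether strand was used in counting.

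TRIM25, a ubiquitin ligase of the RIG-I pathway, was the 1 member whose guide effect differed by a called amount between treatments in cytoplasm, where 1.02% of all genes tested had a higher and 2.61% a lower effect with CHX. With CHX TRIM25 was at 90.9, 81.5 and 90.8 CPM in sgERH libraries, against 62.5, 59.3 and 59.3 CPM in sgAAVS1 libraries (log2 fold change 0.54 ± 0.05, adjusted p = 5.49e-07). With DMSO it was at 77.8, 77.9 and 79.6 CPM in sgERH libraries, against 111, 107 and 115 CPM in sgAAVS1 libraries (log2 fold change -0.50 ± 0.05, adjusted p = 8.08e-07). The sgERH libraries were all above the sgAAVS1 libraries with CHX and all below them with DMSO, and the difference was 1.04 ± 0.08 (adjusted p = 1.17e-07), or 0.98 without replicate 3 of the sgAAVS1 libraries given DMSO and 0.92 with an offset for transcript length. GBP1 was called lower for this difference when any of 3 libraries was left out. TRIM25 overlaps DGKE and C17orf67. In nucleus 0 members were called for this difference in either direction, where 1.29% of all genes were higher and 2.33% lower. Of the members 16 had an unadjusted p below 0.05 and 9 an adjusted p of at most 0.05, with no share of all genes taken. DESeq2 also called 0. GBP2 was called without sgAAVS1 replicate 1 given DMSO or sgERH replicate 2 given CHX.

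CHX over DMSO called 14 members in 1 or more of its 4 comparisons, 7 of them also called for the guide, and GBP2 rose with it in both guides and both fractions. In sgERH cytoplasm 4 members rose and 0 fell with CHX, where 7.15% of all genes rose and 1.88% fell. In sgAAVS1 cytoplasm 2 rose and 1 fell, against 13.6% and 6.31% of all genes, and 5 were called in place of 3 without DMSO replicate 1 or with only the 6 libraries compared. In sgERH nucleus 4 rose and 2 fell, against 8.52% and 6.29% of all genes. In sgAAVS1 nucleus 6 rose and 4 fell, against 14.4% and 10.8% of all genes. As shares of the 36 members tested, the rises came to 11.1, 5.56, 11.1 and 16.7% in this order, which is near or below the shares of all genes and no result about the group. An adjusted p of at most 0.05, at any size of change, was reached by 16, 19, 16 and 18 members, with no share of all genes taken. The nuclear counts include RSAD2 in both guides and IFI44 in sgAAVS1 cells, whose tests are limited as given below.

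GBP2 in the sgERH nucleus was at 15.8, 12.9 and 18.9 CPM in CHX libraries, against 1.14, 1.21 and 0.989 CPM in DMSO libraries (log2 fold change 3.83 ± 0.24, adjusted p = 1e-09). In the sgAAVS1 nucleus it was at 4.69, 5.59 and 4.76 CPM in CHX libraries, against 0.373, 0.784 and 0.865 CPM in DMSO libraries (log2 fold change 2.90 ± 0.26, adjusted p = 3.02e-08). CHX libraries exceeded DMSO libraries for both guides, and in cytoplasm GBP2 rose by 2.48 ± 0.21 in sgERH and 1.91 ± 0.22 in sgAAVS1 cells. GBP1 in sgAAVS1 cytoplasm was at 1.72, 2.01 and 2.03 CPM in CHX libraries, against 0.404, 0.58 and 0.345 CPM in DMSO libraries (log2 fold change 2.10 ± 0.19, adjusted p = 6.15e-08). In sgERH cytoplasm it was at 6.22, 6.01 and 6.48 CPM in CHX libraries, against 2.74, 3.18 and 2.65 CPM in DMSO libraries (log2 fold change 1.13 ± 0.16, adjusted p = 2.09e-05). The GBP1 groups were separate for both guides. IFIT2 in sgERH cytoplasm was at 6.19, 5.98 and 9.06 CPM in CHX libraries, against 1.71, 2.57 and 2.27 CPM in DMSO libraries (log2 fold change 1.70 ± 0.23, adjusted p = 1.08e-05). IFIT1 also rose there, by 1.09 ± 0.30.

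In nucleus CMPK2, a mitochondrial nucleotide kinase, rose with CHX in both guides, by 1.69 ± 0.23 in sgERH and 1.63 ± 0.24 in sgAAVS1 cells. RSAD2 was called in both, by 2.09 ± 0.79 and 2.07 ± 0.73, and lost the call in each without the filter on low counts and under several left-out libraries. It met the limit of that filter in 2 of 6 sgERH and 3 of 6 sgAAVS1 nuclear libraries. Its CHX libraries all lay above its DMSO libraries in both guides, so that it entered the test through CHX libraries. These RSAD2 calls therefore support nothing. IFIT2 in the sgERH nucleus, at 1.32 ± 0.45, was lost when any 1 of 4 libraries was left out (adjusted p 0.0523 to 0.0935) and with the length offset (adjusted p = 0.109). IRF7, GBP3 and SAMD9L were called higher in the sgAAVS1 nucleus alone, by 1.75, 1.27 and 1.16, which is not a test of a difference between guides. IRF9 fell with CHX by 1.35 in the sgERH nucleus and 1.07 in the sgAAVS1 nucleus, the second call being lost without CHX replicate 2 (-0.99). IFIT5 fell by 1.35 in nucleus and 1.09 in cytoplasm of sgAAVS1 cells, where the cytoplasmic call was lost without DMSO replicate 3 (-0.99), and PARP12 fell by 1.49 in the sgAAVS1 nucleus. LGALS3BP, a secreted glycoprotein, fell by 1.08 in the sgERH nucleus, a call lost in most alternatives. IFI44 in the sgAAVS1 nucleus had 0, 1 and 1 counts in CHX libraries, against 7, 10 and 13 in DMSO libraries, a ratio of 0.0719 (exact 95% interval 0.00833 to 0.283). It met the filter limit in 2 of 6 sgAAVS1 libraries and entered the nuclear test through sgERH libraries. With only the 6 libraries compared IFI44 was not tested, so that this ratio is a description.

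**Figure D3:**
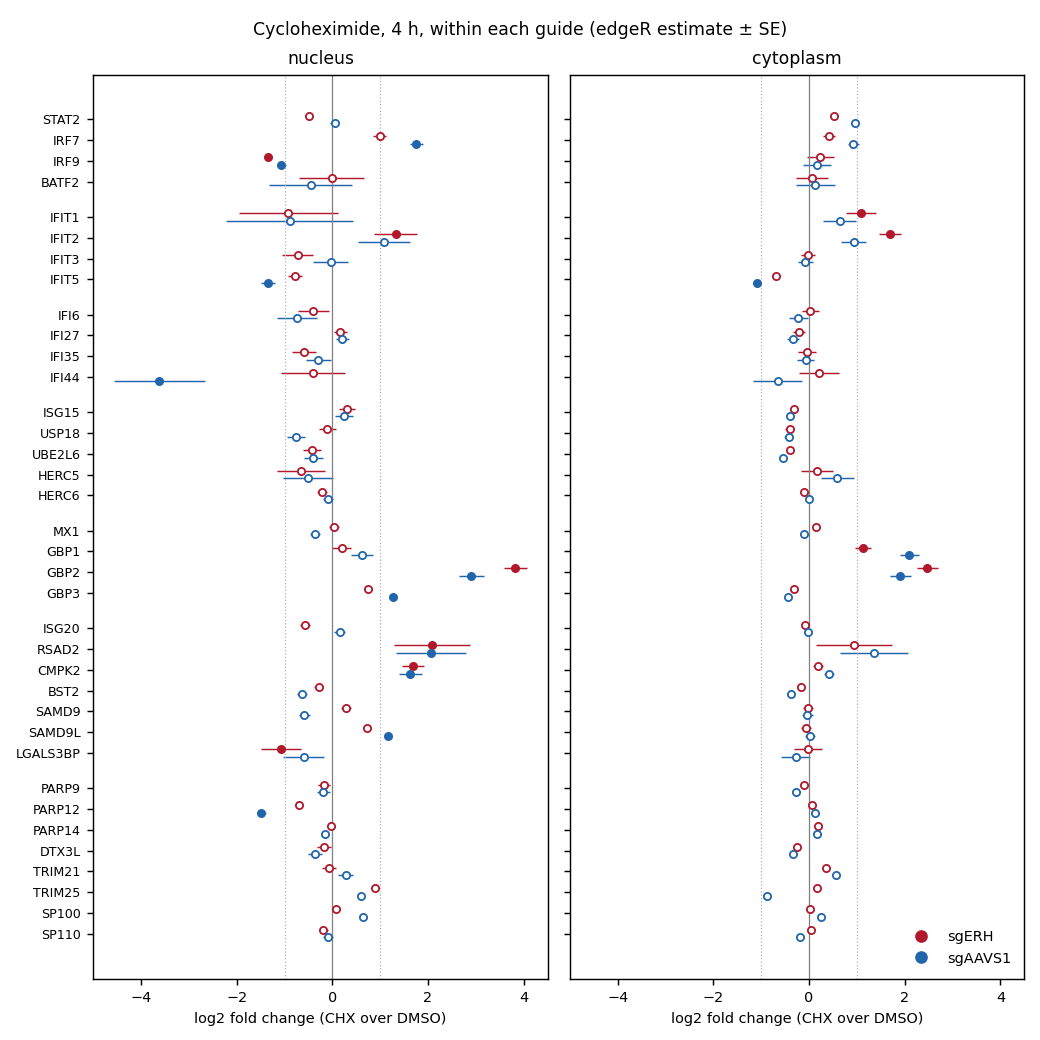
Effect of CHX over DMSO on each tested member, in nucleus and in cytoplasm. The x axis is the log2 fold change with its standard error, drawn for sgERH and for sgAAVS1 cells, and filled points passed the call. GBP2 lies far to the right in both panels for both guides, and IFI44 far to the left in the nucleus of sgAAVS1 cells, where its counts were 0, 1 and 1 with CHX. IFI44 entered the nuclear test through sgERH libraries.

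Levels differed widely among the members. On the TPM scale, which divides by transcript length and library size so that genes can be compared, BST2, which tethers budding virions to the cell, was the highest member in cytoplasm with DMSO, at 439.6 ± 11.3 TPM in sgERH cells and 396 ± 12.4 TPM in sgAAVS1 cells (SD, n = 3 each). ISG15 and IFI27 followed in sgERH cells, at 164 ± 14 TPM and 158 ± 30.1 TPM, and did not differ from each other beyond their spread. SP100 came next, at 103 ± 7.34 TPM in sgERH cells and 62.7 ± 2.20 TPM in sgAAVS1 cells. At the other end, 8 members in sgERH and 11 in sgAAVS1 nucleus, and 11 in sgERH and 13 in sgAAVS1 cytoplasm, were below 1 TPM with DMSO.

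Genes of the response differed in where their RNA lay. In DMSO libraries STAT2 averaged 176 TPM in the sgERH nucleus and 12.3 TPM in the sgERH cytoplasm, a ratio of 14.4, while in sgAAVS1 cells the ratio was 20.3. IRF9 had the highest ratio, 31.4 in sgERH cells and 70.2 in sgAAVS1 cells, subject to the read-through transcript named above. At the other end in sgERH cells IFIT5 had a ratio of 0.385, IFI27 0.417, UBE2L6 0.418 and ISG15 0.480. In sgAAVS1 cells ISG15 had the lowest ratio, 0.178, while UBE2L6 had 0.231, IFI27 0.295 and IFIT5 0.421. Nuclear libraries lay above cytoplasmic ones for 15 members in each guide, below for 10 in each, and overlapped them for 7 in sgERH and 3 in sgAAVS1 cells, among members of at least 0.5 TPM in both fractions. The shares over all genes were not taken, so that these counts are no result about the group. Both fractions were scaled to their own totals, so a ratio of 1 is no equal amount.

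**Figure D4:**
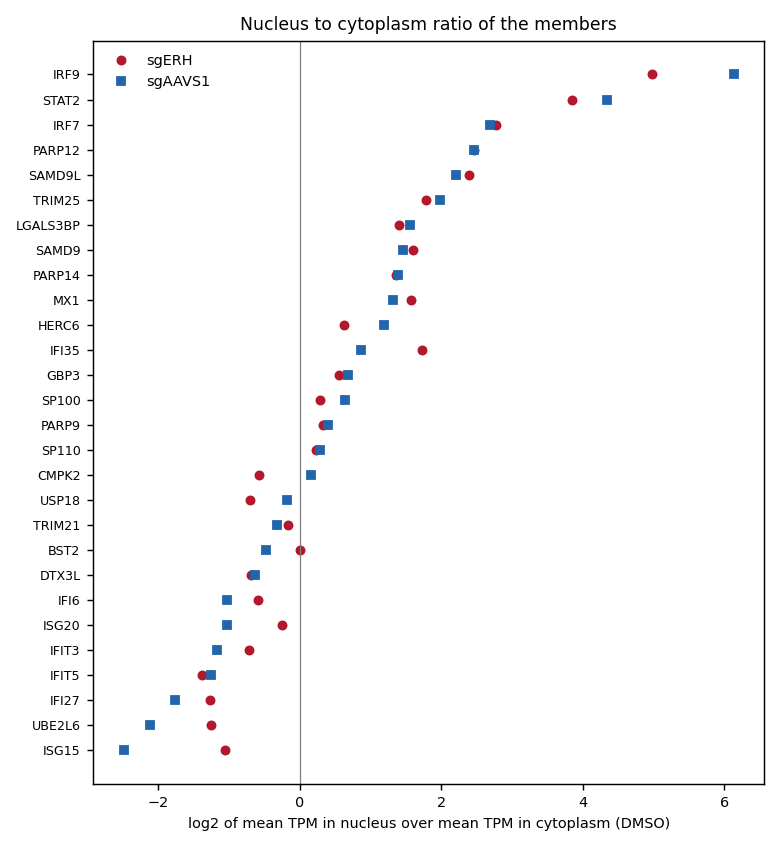
Nucleus to cytoplasm ratio of the members in DMSO libraries. The x axis is the log2 ratio of mean TPM in nucleus over mean TPM in cytoplasm, with circles for sgERH and squares for sgAAVS1 cells. IRF9, with ratios of 31.4 and 70.2, and STAT2, with 14.4 and 20.3, are at the nuclear end. IFIT5, IFI27, UBE2L6 and ISG15 lie toward the cytoplasmic end, where IFIT5 is lowest in sgERH cells, at 0.385, and ISG15 in sgAAVS1 cells, at 0.178.

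Reads across exon and intron boundaries, which come from RNA that is not fully spliced, also rose for members. In nucleus with DMSO 9 of 33 members tested had more such reads in sgERH cells and 0 had fewer, where 2.73% of all genes had more and 1.05% fewer, and the median log2 fold change was 0.76 for members and -0.02 for all genes. DESeq2 was not run on these reads, and 20 members had an unadjusted p below 0.05 in either direction, with no share of all genes taken. SP110 had 584, 738 and 576 boundary reads in sgERH libraries, against 258, 226 and 184 in sgAAVS1 libraries (log2 fold change 1.31 ± 0.18, adjusted p = 2.57e-05). IFI6 had 190, 168 and 97 boundary reads in sgERH libraries, against 13, 21 and 8 in sgAAVS1 libraries (log2 fold change 3.26 ± 0.46, adjusted p = 2.47e-05). GBP1 had 84, 80 and 84 boundary reads in sgERH libraries, against 4, 14 and 24 in sgAAVS1 libraries (log2 fold change 2.34 ± 0.52, adjusted p = 0.00235). The groups of these 3 genes did not overlap. HERC6 had 502, 571 and 581 boundary reads in sgERH libraries, against 211, 205 and 242 in sgAAVS1 libraries (log2 fold change 1.13 ± 0.18, adjusted p = 0.000124), and ISG20, an exonuclease, had 556, 628 and 523 boundary reads in sgERH libraries, against 261, 222 and 218 in sgAAVS1 libraries (log2 fold change 1.09 ± 0.19, adjusted p = 0.000279). SAMD9, SAMD9L and IFI44 were also called, at 3.09 ± 0.71, 1.72 ± 0.49 and 2.79 ± 0.60, and SAMD9L lost its call when 1 of 3 libraries was left out (adjusted p 0.0742 to 0.0884). SAMD9, 1 of the 9, had 10, 4 and 0 boundary reads in sgAAVS1 libraries with DMSO and 4, 4 and 5 with CHX. It passed the low-count filter through sgERH libraries, so that its call here supports nothing. GBP2 had 1, 7 and 11 boundary reads in sgERH libraries, against 0, 1 and 0 in sgAAVS1 libraries, a ratio of 16.5 (exact 95% interval 2.62 to 684), and lost its call when 1 of 3 libraries was left out (adjusted p 0.0759 to 0.088). Across each nuclear library with DMSO, boundary reads per 100 spliced reads spanned 32.3 to 32.4 in sgERH cells, against 38.8 to 40.6 in sgAAVS1 cells.

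Retention of single introns, read as intron depth relative to depth plus spliced reads, was tested for 279 introns of 28 members in nucleus with DMSO. In sgERH cells 5 were more and 22 less retained, where 1.4% of all introns tested were more and 4.42% less retained. The median log2 difference was -0.36 for member introns and -0.37 for all introns. In HERC6 the intron at chr4:88440058-88440147 (GRCh38) was at 33.0, 24.4 and 30.9% in sgERH libraries, against 7.07, 6.29 and 0.662% in sgAAVS1 libraries (log2 difference 3.09 ± 0.51, adjusted p = 0.00683). The sgERH values were all above the sgAAVS1 values, on 126 to 137 spliced reads in sgERH libraries and 75 to 92 in sgAAVS1 libraries. In PARP12 the intron at chr7:140057154-140057898 was at 53.4, 44 and 50.6% in sgERH libraries, against 30.8, 32.9 and 24.5% in sgAAVS1 libraries. In SP100 the intron at chr2:230511167-230515094 was at 44.6, 41.5 and 50.3% in sgERH libraries, against 30.5, 25.4 and 29.96% in sgAAVS1 libraries. These groups were separate too. The other 2 lie in PARP14, at chr3:122713935-122714261 and chr3:122727987-122728307, with means of 6.88% and 14.3% in sgERH libraries, against 0.864% and 6.22% in sgAAVS1 libraries. PARP12 also had 7 of its 13 tested introns less retained. These counts moved with the libraries used. Without sgAAVS1 replicate 1, 2 or 3 the introns more retained numbered 3, 3 and 2 and those less retained 9, 12 and 10. Without sgERH replicate 1, 2 or 3 they numbered 5, 5 and 3 and 14, 13 and 12. With boundary reads in place of depth 1 of the 5 introns kept its call, 1 other intron was called more retained and 9 less.

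Ligands, receptors and kinases of the pathway gave few calls. Of 11 interferon genes 1, IFNE, had enough reads for a test, and IFNB1, IFNL1 and IFNG had at most 2 counts in any library. IFNE was called in cytoplasm with DMSO (1.30 ± 0.54, adjusted p = 0.0495), at a mean of 0.292 CPM in sgERH libraries and 0.116 CPM in sgAAVS1 libraries, and in no other comparison. All 16 receptors, kinases and their regulators were tested, and none was called in cytoplasm with CHX. JAK2 fell in cytoplasm with DMSO by 1.53 ± 0.08, where 2.16% of all genes fell. IFNAR2 fell in nucleus with DMSO by 1.09 ± 0.08, where 1.73% of all genes fell. The median log2 fold changes of this list were -0.05 in nucleus with DMSO and 0.00073 in cytoplasm with DMSO. SOCS1 and SOCS3, inhibitors of the kinases, rose in nucleus with CHX, by 1.65 ± 0.55 and 1.04 ± 0.19. They are 12.5% of the 16, where 5.29% of all genes rose. These few calls are no result about the list.

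A longer list held 63 other interferon-stimulated genes. In cytoplasm 6 rose and 1 fell with DMSO, and 8 rose and 1 fell with CHX, of 50 tested, so that 12% rose with DMSO, where 9.3% of all genes did, and 16% with CHX, where 5.79% did. In nucleus 3 rose and 0 fell with DMSO, and 8 rose and 0 fell with CHX, of 48 tested, or 6.25% with DMSO, where 4.77% of all genes rose, and 16.7% with CHX, where 5.29% did. With DMSO these shares are near those of all genes, and a difference between this list and the members was not tested. APOL1, an apolipoprotein that kills trypanosomes, rose by 2.68 ± 0.53 in cytoplasm with DMSO. In nucleus with DMSO APOL1 had 31, 33 and 56 counts in sgERH libraries, against 0, 0 and 3 in sgAAVS1 libraries, a ratio of 30.3 (exact 95% interval 10.1 to 149). GBP5, which acts in inflammasome assembly, had 2, 5 and 5 counts in sgERH libraries, against 0, 0 and 0 in sgAAVS1 libraries, in cytoplasm with DMSO, or at least 4.81-fold higher by a floor of 3 counts over the group. With CHX in cytoplasm, sgAAVS1 libraries held 2, 5 and 9 counts of GBP5 and 3, 2 and 0 of APOL1. All these sgAAVS1 counts were under the limit of the low-count filter. GBP5 in cytoplasm was thus tested through sgERH libraries, and the values of both genes are a description. The shares of this list include such genes. TDRD7, an inhibitor of autophagy in virus infection, fell in cytoplasm, by 1.17 ± 0.08 with CHX and 1.61 ± 0.08 with DMSO. APOL6 rose in nucleus with CHX, by 1.77 ± 0.39.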

How the data were processed

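Poly(A) RNA of 24 libraries was sequenced by the authors and run through nf-core/rnaseq, with trimming by fastp 0.23.4, alignment by STAR and estimation by salmon against Ensembl v110 (GRCh38). The deposited table holds expected counts per transcript, not scaled for depth, and the deposited TPM values are scaled for transcript length and total. Intron files made by the authors with IRFinder-S give read counts at intron boundaries, depth as a signal and intron ratios as a fraction. Expected counts were summed per gene and rounded to whole numbers. Genes were filtered with filterByExpr (minimum count 10) within each fraction, which came to 0.166 CPM in cytoplasm and 0.310 CPM in nucleus in at least 3 libraries. Of the 14 members called for the guide, 3 in cytoplasm and 5 in nucleus were under that limit in some sgAAVS1 libraries. In nucleus BATF2, IFIT1 and IFI44 met it in 0, 1 and 2 of 6 sgAAVS1 libraries, so that they could not have passed without sgERH libraries. edgeR 4.0.16 (TMM, quasi-likelihood test, R 4.3.3) was fitted over the 12 libraries of a fraction, and over both fractions with DMSO for their difference. Introns needed a mean of depth plus spliced reads of 10, and a ratio of 5% in a group. Scripts were tested on simulated data. Samples were grouped by their labels, which call the replicates biological without further detail, so p-values measure the spread between these libraries. No columns without a sample were used. Members and lists were chosen with earlier results of these data known. Values per library are given for members called for the guide and for STAT2, IRF9 and IRF7, others by counts. TRIM25, UBE2L6, HERC6 and RSAD2 were given in full after their values were seen. From the pathway lists, the 2 called with the largest rise and the 2 with the largest fall were named. Alternatives were DESeq2 1.42.0, RLE scaling, no filter, the compared libraries alone, a transcript length offset, a replicate block and each library left out.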

Additional observations from a re-analysis of the deposited data

Results flagged for a closer look

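For 3 members the guide effect itself differed between fractions or treatments by the test of that difference. Those called between fractions are 5.71% of 35 members, where 1.78% of all genes were higher and 3.95% lower. The 1 called between treatments in cytoplasm is 2.78% of 36, where 1.02% of all genes were higher and 2.61% lower. Neither count is a result about the group. The effect on ISG15 in nucleus minus that in cytoplasm, with DMSO, was 1.497 on the log2 scale, and that on UBE2L6 was 1.04. The effect on TRIM25 in cytoplasm with CHX minus that with DMSO was also 1.04. In each case all 3 sgERH libraries were above all 3 sgAAVS1 libraries in the first of the conditions, and for TRIM25 they were all below in the second. UBE2L6 lost its call without replicate 1 of the nuclear sgERH libraries (0.91). TRIM25 lost its call without replicate 3 of the sgAAVS1 libraries given DMSO (0.98) and with the transcript length offset (0.92).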

How the results depend on the processing

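Of the 43 calls of sgERH against sgAAVS1, 41 held under every alternative, the exceptions being BATF2 in nucleus with DMSO and MX1 in nucleus with CHX. The 43 include the nuclear calls of BATF2 and IFI44, which entered the test through sgERH libraries and support nothing even where they held. Over all comparisons 66 of 78 calls held in each alternative that tested the gene, and no call reversed its direction. The 66 include the fall of IFI44 with CHX in the sgAAVS1 nucleus, which was not tested with only the 6 libraries compared. Of 167 counts, 151 stayed within 1.5 times the main count. With CHX in sgAAVS1 cytoplasm, 5 members were called in place of 3 with only the 6 libraries compared. For the effect in nucleus minus that in cytoplasm, 4 were called in place of 2 with the transcript length offset, which added IFI35 and IRF9; TRIM25 lost its call under that offset (0.92). Member introns more retained numbered 2 in place of 5 with boundary reads in place of depth. The cause was not tested. When single libraries were left out, the members called for the guide numbered 10 to 12 in cytoplasm with DMSO, 11 to 12 in cytoplasm with CHX, 8 to 10 in nucleus with DMSO and 13 to 14 in nucleus with CHX. The nuclear numbers can include BATF2 and IFI44, limited as above. For CHX they numbered 4 to 4 in sgERH cytoplasm, 3 to 5 in sgAAVS1 cytoplasm (5 without DMSO replicate 1), 4 to 5 in sgERH nucleus and 8 to 11 in sgAAVS1 nucleus. For the difference of guide effects between treatments they numbered 0 to 2 in cytoplasm, with 0 without DMSO sgAAVS1 replicate 3 and GBP1 added in 3 settings, and 0 to 1 in nucleus, where GBP2 was added without DMSO sgAAVS1 replicate 1 or CHX sgERH replicate 2. For the difference between fractions they numbered 1 to 4, with 4 without nuclear sgAAVS1 replicate 2 and 1 without nuclear sgERH replicate 1. Boundary reads gave 7 to 10 and introns 2 to 5, with 2 without sgAAVS1 replicate 3.

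The labels give all groups replicate numbers 1 to 3, but the deviations of same-numbered libraries correlated at -0.035 to 0.083, so that they share only a number. With the replicate block the guide calls numbered 10 and 11 in cytoplasm and 9 and 13 in nucleus with DMSO and CHX, and CHX called 4 in place of 6 in sgERH nucleus, where RSAD2 and LGALS3BP were not called. For member introns it left 5 more retained and gave 16 less retained in place of 22. In the other comparisons the block left the count of calls as it was. Members of a few counts, such as IFI44 and IFIT1 in nucleus and RSAD2, are limited by depth.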

Other observations

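Antigen presentation by MHC class I, which interferon also raises, had estimates mostly above 0 and few calls. Of 15 genes of that list, all tested, 13 had a log2 fold change above 0 in sgERH cells in cytoplasm with DMSO and 15 in each of the other 3 comparisons, with medians of 0.37 in nucleus with CHX, 0.69 in nucleus with DMSO, 0.65 in cytoplasm with CHX and 0.50 in cytoplasm with DMSO. Of all genes, 50.3 to 52.6% lay above 0 in these comparisons, with medians of 0.01 to 0.04. The 1 gene called in each comparison is 6.67% of the list, where 4.77 to 9.3% of all genes were called higher. HLA-E, a ligand of natural killer cell receptors, was the 1 called in cytoplasm with DMSO, at 1.05 ± 0.05. ERAP2, a peptidase that trims peptides for loading, was the 1 called in each of the others, at 1.26 ± 0.13 in nucleus with CHX, 1.18 ± 0.13 in nucleus with DMSO and 1.33 ± 0.07 in cytoplasm with CHX. Of 17 sensors and inducers of interferon, TLR3, a receptor for double-stranded RNA, was the only one called, in 3 comparisons. It rose by 1.84 ± 0.30 in nucleus with DMSO, 1.19 ± 0.17 in cytoplasm with CHX and 1.08 ± 0.17 in cytoplasm with DMSO. That 1 gene is 7.69% of the 13 tested in cytoplasm, where 9.3% of all genes rose with DMSO and 5.79% with CHX. In nucleus with DMSO it is 6.67% of 15 tested, where 4.77% of all genes rose. These shares are near those of all genes and no result about the list. In nucleus with DMSO TLR3 averaged 8.04 ± 1.497 CPM in sgERH libraries and 2.25 ± 0.821 CPM in sgAAVS1 libraries (SD, n = 3 each). Of 8 colon epithelial markers 4 were tested, and they did not move together. EPCAM, an epithelial adhesion protein, was called higher in sgERH cells in all 4 comparisons, at 1.38 ± 0.11 in cytoplasm with DMSO, and CDX2, an intestinal transcription factor, in nucleus with CHX, at 1.16 ± 0.20. KRT18, a keratin, was called lower in cytoplasm with CHX, at -1.01 ± 0.06. The summed level of the list in cytoplasm with DMSO spanned 175 to 185 CPM in sgERH libraries, against 229 to 261 CPM in sgAAVS1 libraries.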
